A study of Paeonia lactiflora with 8 samples.

Results

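Root was set against leaf in herbaceous peony, Paeonia lactiflora, a perennial whose thickened storage root is the organ used medicinally. Both tissues were collected at the blossom period, and each gave 2 biological replicates, so that 4 of the 8 RNA-seq libraries of the study carry the comparison. The other 4 libraries, from flower at the blossom period and fruit at the young fruit period, entered the same model only to estimate the spread between replicates. No cultivar, genotype or treatment is given in the labels, and nothing says whether a root and a leaf library came from one plant. Genes are components of a de novo assembly, 30177 in all, of which 27939 had enough reads to be tested. Gene symbols, products, GO terms, KOG classes and KEGG pathways are those of the authors' table. Symbols are borrowed from other organisms, mostly plants, several IDs can carry one symbol, and roles given below are those known for such genes in plants such as Arabidopsis.

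A leaf fixes carbon by day, recycles the glycolate that Rubisco's oxygenase reaction makes, builds and repairs chloroplasts and is sealed by a waxy cuticle. A thickened root has no light and no working chloroplasts. It takes up water and ions, imports sucrose through the phloem, stores carbon as starch, thickens and lignifies its vascular tissue and meets soil microbes at its surface. The comparison shows how the RNA of these functions is divided between the organs, beyond the photosynthesis and terpenoid genes. Members that the lists below share with the photosynthesis and terpenoid lists were not removed from their counts.

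The estimated counts summed to 44392652 and 40901054 in the root libraries and to 49173429 and 42795795 in the leaf libraries. Levels are given as CPM, a gene's count relative to the TMM-scaled size of its library. They are given in the order replicate 1 and replicate 2, and compare one gene between libraries, not different genes. Replicates correlated across genes with a Pearson's r of 0.874 in root and 0.909 in leaf (log2 CPM), against 0.678 to 0.740 for the 4 pairs of a root with a leaf library; genes are not independent replicates. With 2 libraries per tissue, the p-values measure only the spread between these samples. The root replicates stood further apart in the genes higher in root than the leaf replicates did in the genes lower in root. Root and leaf were not compared on the same genes here. Among genes higher in root, 40.7% differed more than 2-fold and 16.1% more than 4-fold between the root libraries. Among genes lower in root, 14.8% and 2.03% did so between the leaf libraries. IDs named TAR1-A, after a yeast gene antisense to ribosomal RNA, summed to 87004 and 132019 CPM in root and 36777 and 16459 CPM in leaf, over 3 IDs. In the flower libraries, which enter the estimate of the spread, these IDs held 5.86% and 41.4% of the counts. Their part in the results was not tested.

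The labels were checked against tissue markers. The leaf markers, 53 IDs picked by symbols of Rubisco small subunit, chlorophyll-binding and photosystem genes, summed to 296 and 375 CPM in root and to 171852 and 125324 CPM in leaf. Of the 50 tested, 37 were lower in root and 0 higher. The symbols also caught CAB39 (comp13633_c0), described as a calcium binding protein, and CABP2 (comp21327_c0), with no product name. PSAT comp52326_c0 and PSAT comp62521_c0, likewise with no product name, were caught too and did not pass (adjusted p = 0.979 and 0.907). CABP2 alone stood at 91.2 and 112 CPM in root and 86.7 and 82.7 in leaf. The root markers, 31 IDs picked by symbols of root patterning, phosphate and nitrate uptake genes, gave no clear separation. They summed to 1308 and 414 CPM in root and 648 and 436 CPM in leaf, with 1 higher and 2 lower of 28 tested. The 1 higher ID, comp19613_c0, shares the symbol PHO1 with a phosphate exporter, but its product is given as starch phosphorylase, and it is no root marker; it stood at 1199 and 158 CPM in root and 33.4 and 38.3 in leaf (log2 fold change 4.24, SE 0.92, adjusted p = 0.0294). Without it, 30 IDs summed to 108.6 and 255.4 CPM in root and 614.4 and 397.3 CPM in leaf, with 0 of 27 tested higher and 2 lower. The IDs of the patterning genes SHR, SCR and PLT1 did not pass, and the root hair expansin EXPA7 was at 0 in all 4 libraries. The leaf sum came mostly from 1 phosphate transporter, PHT1-4 (comp19941_c0), at 28.5 and 76 CPM in root and 506 and 282 in leaf (log2 fold change -2.91, SE 0.67, adjusted p = 0.0347). The other lower ID was PHO1-H1 (comp1091_c0), at 0 and 0.0684 CPM in root and 1.68 and 2.31 in leaf (log2 fold change -5.71, SE 1.26, adjusted p = 0.0307). Other IDs of the list were above leaf in both root libraries without passing. They were PHO1 comp21811_c0, which has no product name, at 24.4 and 18.7 CPM in root and 0.531 and 2.81 in leaf (adjusted p = 0.123), the nitrate transporter NRT2.4 (comp22908_c0) at 10.8 and 72.4 CPM in root and 6.12 and 3.67 in leaf (adjusted p = 0.0654), and the phosphate transporters PHT1-3 (comp11729_c0) at 0.304 and 16.2 CPM in root and 0.0442 and 0 in leaf (adjusted p = 0.111) and PHT1-7 (comp10259_c0) at 0.405 and 9.05 CPM in root and 0 and 0 in leaf (adjusted p = 0.0722). SHR comp19331_c0 also lay higher in both, at 4.09 and 6.93 CPM in root and 3.87 and 0.892 in leaf (adjusted p = 0.348). Further IDs lay below leaf in both root libraries without passing. Among these were NRT2.7 (comp22019_c0) at 0 and 1.57 CPM in root and 40.3 and 44 in leaf (adjusted p = 0.0652). PHO1-H7 (comp22757_c0) stood at 6.93 and 6.37 CPM in root and 15 and 15.2 in leaf (adjusted p = 0.292). No marker of the list, the starch phosphorylase aside, passed as higher in root. The list also holds an ID named CASP (comp21819_c0) whose product is given as homeobox protein cut-like, and which did not pass (adjusted p = 0.849). In bulk tissue, fewer cells of a type and less RNA per cell cannot be told apart.

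A gene passed at a Benjamini-Hochberg adjusted p under 0.05 from edgeR's quasi-likelihood test with a change of 1 or more, up or down, on the log2 scale. By this rule 12.4% of tested genes passed, 4.45% as higher and 7.92% as lower in root, and the lists below are read against these shares. For genes with a GO term the shares were 5.87% and 10%, and for those with a KEGG pathway 6.42% and 10.9%. Genes with a KOG class passed as higher in 4.62% and as lower in 8.4% of cases. Genes with no symbol and no annotation passed in 8.93% of cases, 3.21% as higher and 5.73% as lower. Both root libraries lay above both leaf libraries for 30.7% of all tested genes, and both leaf above both root libraries for 26.9%. Lack of overlap between the tissues, given below for named genes, is thus common and is no separate evidence. The genes higher in root held 24.8% and 13.1% of the counts of the root libraries, and 1.01% and 1.05% of those of the leaf libraries. The genes lower in root held 50.3% and 50.2% of the leaf counts and 2.3% and 2.58% of the root counts. The share of the leaf-side genes was alike in both leaf libraries, while that of the root-side genes differed between the root libraries. Higher genes made up 35.9% of those that passed, but 52.4% when libraries were scaled by their totals without the 20 highest genes and 50.3% in limma on log2(TPM + 1), which moved the median log2 fold change of all genes from 0.09 to 0.54 and 0.35. Of the 1242 higher genes 129 (10.4%) passed in all 4 fits that left out 1 root or leaf library, and of the 2213 lower genes 905 (40.9%). Over the 4 tissues, root had the highest mean for 837 of the 1242 genes higher in root, fruit for 227 and flower for 178.

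**Figure D1:**
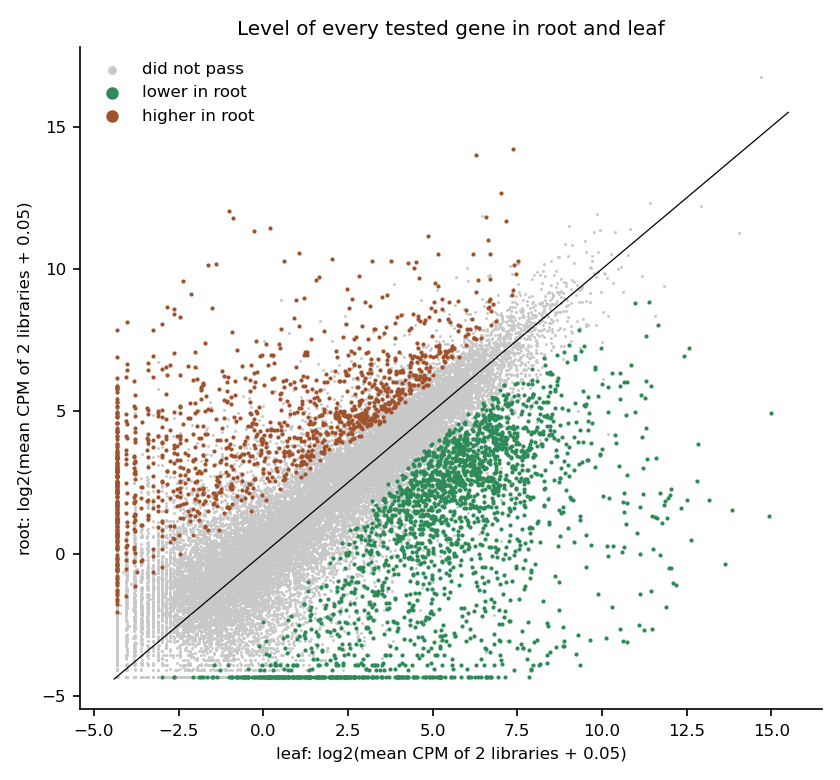
Mean level of each of the 27939 tested genes in root (vertical) and leaf (horizontal), both as log2 of the mean CPM of 2 libraries plus 0.05; brown points passed as higher in root, green points as lower, and the line marks equal levels. The 2213 green points form a denser cloud than the 1242 brown ones, which are scattered up to high root levels. The gene with the highest level in root, TAR1-A comp22710_c0, did not pass.

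Genes with a plastid annotation passed far more often as lower than as higher, though most lower genes with GO terms carried no such annotation. Of 1372 tested genes with a GO term that names a plastid, thylakoid or photosystem, 493 (35.9%) were lower in root and 41 (2.99%) higher, with a median log2 fold change of -1.25. Photosynthesis genes were not removed from this count, and 92 of the 493 were also in the list of photosynthesis by GO term. Of the 10574 genes with GO terms but none of these, 705 (6.67%) were lower and 660 (6.24%) higher, with a median of 0.20, beside 0.09 over all tested genes. Among KOG classes, coenzyme transport and metabolism had 36 of 140 genes lower and 2 higher, inorganic ion transport 59 of 370 lower and 12 higher, nucleotide transport and metabolism 21 of 132 lower and 4 higher, and translation 82 of 705 lower and 8 higher. Secondary metabolite genes passed in both directions, with 72 of 508 higher and 61 lower, and so did carbohydrate genes, with 67 of 722 higher and 83 lower. In both classes the higher and the lower share lay above the 4.62% and 8.4% of all genes with a KOG class.

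**Figure D2:**
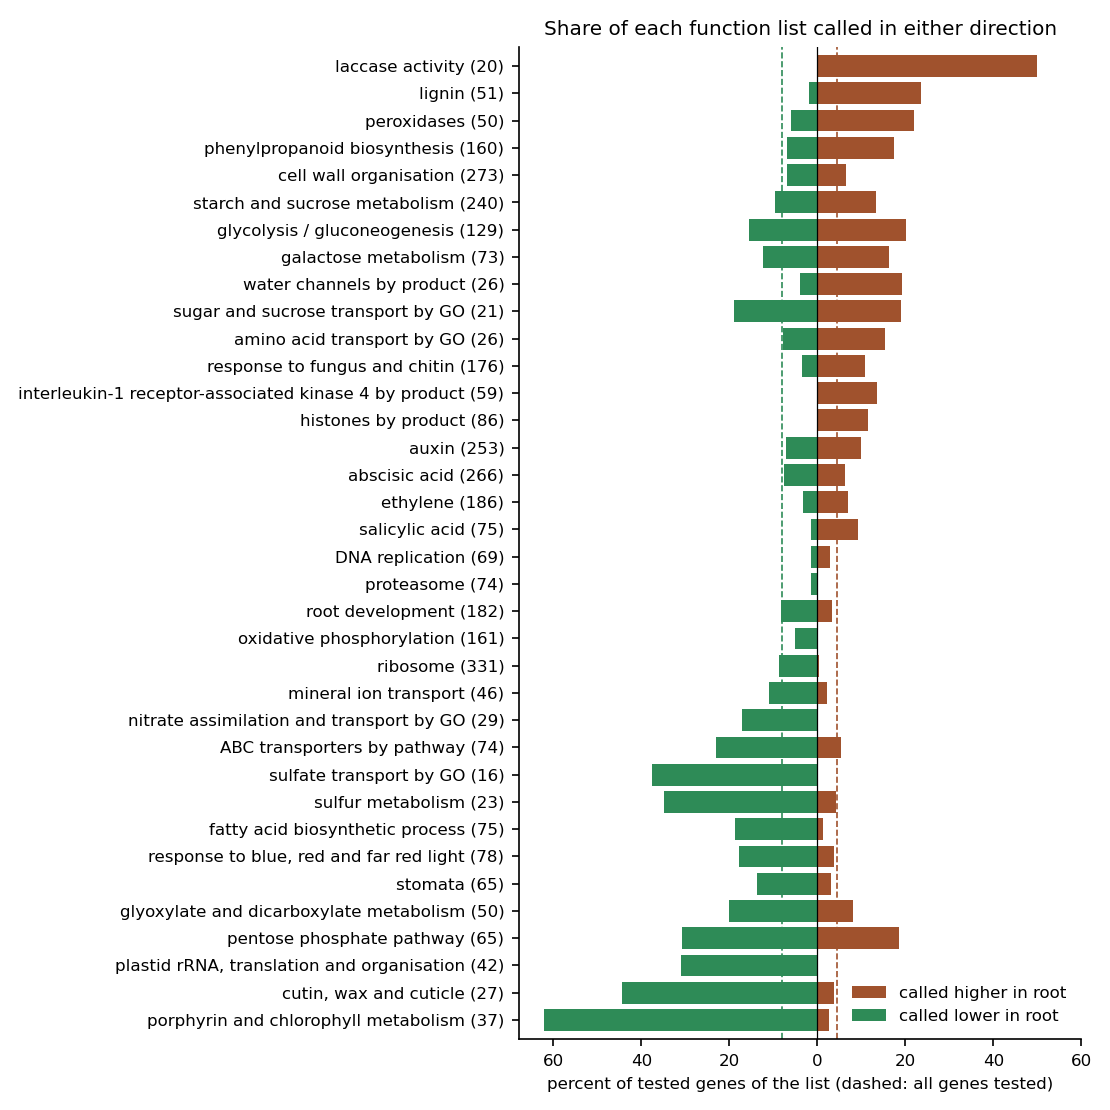
Share of the tested genes of each function list (number tested in parentheses) that passed as higher in root, to the right, and as lower, to the left; dashed lines mark 4.45% and 7.92%, the shares over all tested genes. Laccase, lignin and peroxidase lists lie to the right, and porphyrin, cuticle, plastid and sulfate transport lists to the left.

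The photorespiratory cycle, which salvages the glycolate formed when Rubisco takes up oxygen, had 9 named genes lower in root. All were picked from genes that had passed, and no list of the cycle's genes was counted. Glycolate oxidase GLO1 (comp7434_c0), the peroxisomal entry enzyme, stood at 0.122 and 0.719 CPM in root and 5178 and 4147 in leaf (log2 fold change -13.42, SE 1.44, adjusted p = 0.00285). The P protein of glycine decarboxylase, GDCSP (comp16155_c0), stood at 158 and 86.8 CPM in root and 5886 and 5020.2 in leaf (log2 fold change -5.48, SE 0.65, adjusted p = 0.00379). Its H protein, GDCSH (comp14978_c0), the lipoyl carrier of the complex, stood at 0.0811 and 0.0513 CPM in root and 1761 and 1634 in leaf (log2 fold change -14.60, SE 0.96, adjusted p = 0.00175). Both leaf libraries were above both root libraries for each of these genes, and the replicates of leaf lay close together. The partner enzyme serine hydroxymethyltransferase (comp7283_c0), which makes serine from the glycine carbon, stood at 13.4 and 7.2 CPM in root and 2736 and 3415 in leaf (log2 fold change -8.22, SE 0.69, adjusted p = 0.0019). Serine-glyoxylate transaminase AGT1 (comp19774_c0) stood at 16.7 and 25.6 CPM in root and 2922 and 2155 in leaf (log2 fold change -6.91, SE 0.79, adjusted p = 0.00336), and GGAT2 (comp22500_c0), named after glutamate-glyoxylate transaminase and described as an alanine transaminase, at 77.5 and 51.8 CPM in root and 1558 and 1662 in leaf (log2 fold change -4.64, SE 0.53, adjusted p = 0.00336). These enzymes move the amino groups of the cycle. Catalase CAT1 (comp19400_c0), which removes the hydrogen peroxide of glycolate oxidation, stood at 273 and 256 CPM in root and 3489 and 2928 in leaf (log2 fold change -3.60, SE 0.54, adjusted p = 0.0078), and the hydroxypyruvate reductase HPR3 (comp5229_c0) at 0.0203 and 0.0342 CPM in root and 209 and 233 in leaf (a ratio of 7942 with a counting interval of 2718 to 38512, adjusted p = 0.00452). The aminomethyltransferase GDCST (comp11737_c0), the T protein, was added after its values were seen and stood at 93.2 and 37.5 CPM in root and 1923 and 1506 in leaf (log2 fold change -4.71, SE 0.61, adjusted p = 0.00478). All 9 of these genes passed after each omission of 1 root or leaf library.

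Formate dehydrogenase ran the other way. FDH1 (comp5679_c0), a mitochondrial enzyme that oxidises formate, stood at 2016 and 2559.9 CPM in root and 32 and 25.7 in leaf (log2 fold change 6.31, SE 0.57, adjusted p = 0.00196), so that both root libraries lay far above both leaf libraries and close to each other. It also passed after each omission of 1 library. A second ID named GLO1 (comp17295_c0) was higher in root, at 64.6 and 117 CPM in root and 26.8 and 29.4 in leaf (log2 fold change 1.69, SE 0.40, adjusted p = 0.0373), a far smaller difference than that of comp7434_c0; it passed in 1 of the 4 fits with 1 library left out. The KEGG list for glyoxylate and dicarboxylate metabolism, which holds GLO1 and FDH1, had 4 of 50 genes higher, 10 lower and 36 not passing. Its median log2 fold change was 0.03, beside 0.09 over all tested genes. With library totals without the 20 highest genes, 8 genes of the list were higher and 8 lower. Of its 53 members, tested or not, 23 were also in the photosynthesis or terpenoid lists. Leaving out root replicate 1, root replicate 2, leaf replicate 1 or leaf replicate 2, in this order, 6, 6, 6 and 5 genes were lower; below, the counts after these 4 omissions are given in the same order. In the KEGG folate pathway, 8 of 26 genes were lower and 1, a thymidylate synthase, higher.

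**Figure D3:**
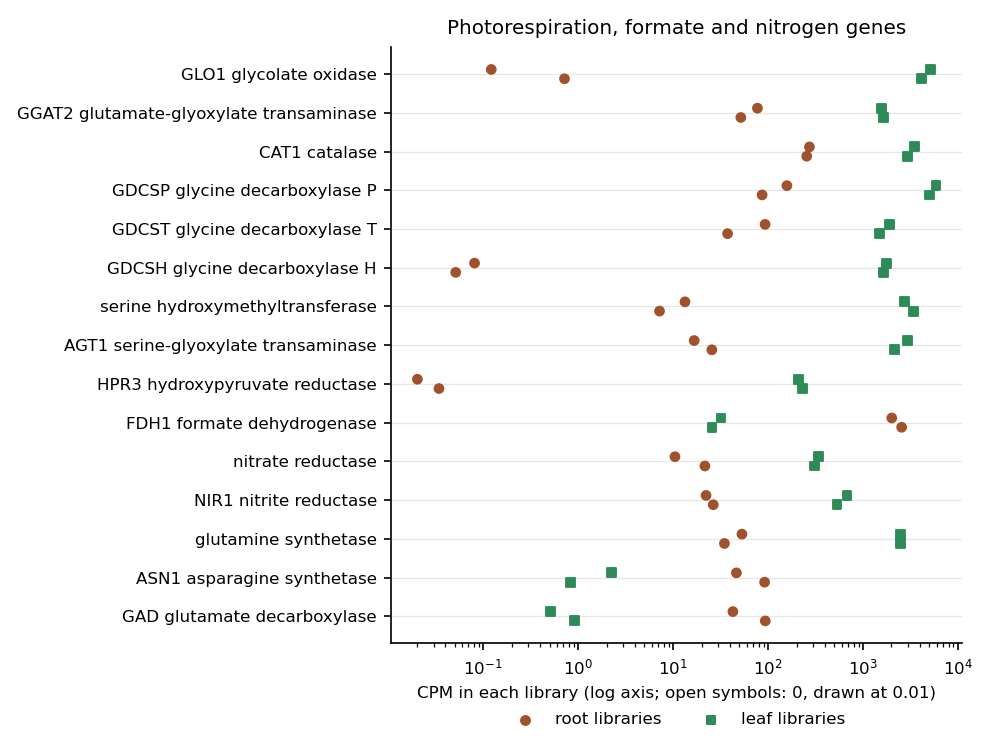
CPM in each root (brown circles) and leaf (green squares) library on a log axis for genes of photorespiration, formate oxidation and nitrogen assimilation, replicate 1 drawn above replicate 2. Leaf lies above root for the photorespiratory genes, nitrate reductase, nitrite reductase and glutamine synthetase, and root above leaf for FDH1, ASN1 and GAD.

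The genes of nitrate and ammonium assimilation that passed were lower in root. A nitrate reductase (comp18678_c0), the first enzyme of nitrate assimilation, stood at 10.5 and 21.7 CPM in root and 341 and 309.7 in leaf (log2 fold change -4.34, SE 0.63, adjusted p = 0.00727). The ferredoxin-dependent nitrite reductase NIR1 (comp18719_c0) followed at 22.3 and 26.5 CPM in root and 681 and 533 in leaf (log2 fold change -4.64, SE 0.45, adjusted p = 0.00232), and a glutamine synthetase (comp14256_c0), which fixes ammonium, at 53.2 and 34.8 CPM in root and 2497 and 2473 in leaf (log2 fold change -5.82, SE 0.59, adjusted p = 0.00243). Leaf was above root in every library for all of them. Of the genes with a GO term for nitrate assimilation or transport, 0 of 29 tested were higher, 5 lower and 24 did not pass. The list's median log2 fold change was 0.43, beside 0.09 over all tested genes. This median was 0.48 and -1.49 without root replicate 1 and 2, and 0.38 and -0.30 without leaf replicate 1 and 2. Carbonic anhydrases, enzymes that interconvert carbon dioxide and bicarbonate and that KEGG files under nitrogen metabolism, made up 3 of the 9 lower genes of that list, and one of them (comp19171_c0) stood at 0.689 and 0.753 CPM in root and 13122 and 12245 in leaf (log2 fold change -14.10, SE 1.22, adjusted p = 0.00192). In the nitrogen list, 10 of 50 genes were higher, but 8 of these 10 carried laccase symbols and the product name NO-forming nitrite reductase, and laccases oxidise phenols.

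Some genes of amino acid synthesis were higher in root. ASN1 (comp22706_c0), which makes asparagine, a transport form of nitrogen, stood at 46.5 and 92.2 CPM in root and 2.23 and 0.826 in leaf (log2 fold change 5.50, SE 0.81, adjusted p = 0.00757). Glutamate decarboxylase GAD (comp18104_c0), which makes 4-aminobutyrate, stood at 42.7 and 93.7 CPM in root and 0.509 and 0.913 in leaf (log2 fold change 6.58, SE 0.81, adjusted p = 0.00424). An aspartate aminotransferase (comp7424_c0) stood at 169 and 117 CPM in root and 35.6 and 36.7 in leaf (log2 fold change 1.98, SE 0.39, adjusted p = 0.0208), while another, ASP5 (comp17244_c0), stood at 34 and 19 CPM in root and 76.3 and 150.1 in leaf (log2 fold change -2.10, SE 0.47, adjusted p = 0.0332). In each case the 2 tissues did not overlap, and of these genes GAD alone passed after all 4 omissions. Genes with a GO term for amino acid transport had 4 of 26 genes higher and 2 lower, with AAP3 (comp17692_c0) at 107 and 26 CPM in root and 5.95 and 3.35 in leaf (log2 fold change 3.83, SE 0.79, adjusted p = 0.0247); the 4 omissions left 2, 3, 0 and 0 higher.

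Sulfate transporters moved in 1 direction. Of 16 tested genes with a GO term for sulfate transport, 0 were higher and 6 lower, and the list's median log2 fold change was -1.94 beside 0.09 over all tested genes. ST3 (comp20900_c0) stood at 2.37 and 0.702 CPM in root and 25 and 57.1 in leaf (log2 fold change -4.74, SE 0.75, adjusted p = 0.00931). SULTR3;1 (comp23007_c0) stood at 12.8 and 11.4 CPM in root and 58.7 and 41 in leaf (log2 fold change -2.04, SE 0.49, adjusted p = 0.0399). The 4 omissions left 1, 3, 2 and 1 lower, and ST3 passed in every one. KEGG's sulfur metabolism had 1 of 23 genes higher and 8 lower, and 4, 6, 3 and 4 were lower after the omissions; scaled by library totals without the 20 highest genes, 4 were lower and the list's median turned from -0.40 to 0.04. Cysteine synthases, which join sulfide to an activated serine, went both ways. One (comp17092_c0) stood at 72.7 and 48.6 CPM in root and 391 and 426 in leaf (log2 fold change -2.75, SE 0.38, adjusted p = 0.00587), and another (comp21985_c0) at 27.8 and 86.6 CPM in root and 0.597 and 0.957 in leaf (log2 fold change 6.20, SE 0.67, adjusted p = 0.00285), and both passed after all 4 omissions.

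In the KEGG pathway of chlorophyll and heme synthesis 23 of 37 genes were lower and 1 higher, with 9 members that the photosynthesis or terpenoid lists also hold and a median log2 fold change of -2.77. CHLH (comp20946_c0), the large subunit of the magnesium chelatase that commits porphyrin to chlorophyll, stood at 1.36 and 0.958 CPM in root and 1239 and 1304 in leaf (log2 fold change -10.10, SE 0.80, adjusted p = 0.00178). Protochlorophyllide reductase PORA (comp21646_c0) stood at 4.62 and 12.3 CPM in root and 1699 and 1217 in leaf (log2 fold change -7.43, SE 0.98, adjusted p = 0.00508). The cyclase subunit CRD1 (comp11630_c0), which closes the fifth ring of chlorophyll, stood at 22.5 and 7.22 CPM in root and 1397 and 1322 in leaf (log2 fold change -6.51, SE 0.71, adjusted p = 0.00299). Leaf was above root in every library for each of these genes, and all of them passed after the 4 omissions. HEMA1 (comp22536_c0), the glutamyl-tRNA reductase at the entry, a step shared with heme, was added after its values were seen and stood at 21.3 and 15.8 CPM in root and 318 and 296 in leaf (log2 fold change -4.05, SE 0.50, adjusted p = 0.00417). The gene higher in root was a geranylgeranyl reductase, CHLP (comp19145_c0), at 53.9 and 15.2 CPM in root and 2.52 and 1.52 in leaf (log2 fold change 4.09, SE 0.79, adjusted p = 0.0194), while the other CHLP (comp16649_c0) stood at 0.0811 and 7.5 CPM in root and 1189 and 1191 in leaf (log2 fold change -8.29, SE 1.85, adjusted p = 0.032). Over the whole list, 17, 15, 13 and 10 genes were lower after the omissions.

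Plastid gene expression and protein turnover genes lay on the leaf side. Of 42 tested genes with GO terms for plastid rRNA, translation or organisation, 13 were lower and 0 higher, with 10, 7, 8 and 6 lower after the omissions. CSP41B (comp21308_c0), an RNA-binding protein of chloroplasts, stood at 0.101 and 1.9 CPM in root and 1422 and 1645 in leaf (log2 fold change -10.57, SE 1.51, adjusted p = 0.0067). In the KEGG ribosome list 29 of 331 genes were lower (8.76%) and 1 higher, and the lower share was under the 10.9% of all genes with a KEGG pathway. Of the 63 tested genes of the list with a plastid GO term, 25 were lower, and they made up 25 of the 29. Among them was RPL1 (comp20769_c0) at 23.8 and 10.4 CPM in root and 568 and 577 in leaf (log2 fold change -5.06, SE 0.62, adjusted p = 0.00414). The other 301 genes of the list did not pass. For aminoacyl-tRNA synthesis 22 of 58 genes were lower and 0 higher. Most of the lower synthetases carried bacterial-type symbols, such as thrS (comp22218_c0) at 3.99 and 4.48 CPM in root and 164 and 208 in leaf (log2 fold change -5.45, SE 0.35, adjusted p = 0.00175), and 4 of the 22 a plastid GO term. KEGG's bacterial cell cycle had 12 of 20 genes lower. Of these, 10 were subunits of the Clp protease, a plastid protein-degrading complex, and 2 were FtsZ genes, which build the ring that divides plastids. CLPP6 (comp12640_c0) stood at 18.2 and 13.5 CPM in root and 117 and 144 in leaf (log2 fold change -3.04, SE 0.39, adjusted p = 0.00455) and FTSZ2-1 (comp21525_c0) at 85 and 34.8 CPM in root and 379 and 335 in leaf (log2 fold change -2.57, SE 0.49, adjusted p = 0.0185), both chosen after their values were seen.

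Oxidative phosphorylation had 8 of 161 genes lower (4.97%) and 0 higher, and the lower share was under the 10.9% of all genes with a KEGG pathway. Of the 40 tested genes of the list with a plastid GO term, 7 were lower, and they made up 7 of the 8. The 8 lower genes included the chloroplast ATP synthase subunit ATPC (comp20174_c0) at 5.03 and 8.35 CPM in root and 1721 and 1696 in leaf (log2 fold change -8.00, SE 0.63, adjusted p = 0.00177). Another was the chloroplast acyl carrier protein ACL1 (comp11939_c0), which KEGG files with a respiratory complex, at 0 and 0.0342 CPM in root and 249.9 and 251 in leaf (a ratio of 13485 with a counting interval of 3733 to 111353, adjusted p = 0.00192). The remaining 153 genes of the list, which include the mitochondrial chain, did not pass in either direction. Its list median of -0.18 became 0.22 when libraries were scaled by their totals without the 20 highest genes.

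Of 78 genes with GO terms for blue, red or far-red light, 14 were lower, 3 higher and 61 did not pass. The list's median log2 fold change was -0.01, and 0.36 with library totals without the 20 highest genes, where 13 were lower and 5 higher. Of 9 tested genes for plastid movement 5 were lower and 0 higher. The blue-light receptor PHOT1 (comp23137_c0) stood at 10.7 and 20.9 CPM in root and 464 and 366 in leaf (log2 fold change -4.71, SE 0.58, adjusted p = 0.00421). CHUP1 (comp12223_c0), which ties chloroplasts to actin, stood at 2.13 and 2.79 CPM in root and 601 and 699 in leaf (log2 fold change -8.04, SE 0.50, adjusted p = 0.00175). The libraries did not overlap for either gene. Factors of light signalling followed, with the phytochrome-interacting factor PIF5 (comp21961_c0) at 1.58 and 5.54 CPM in root and 131 and 88.4 in leaf (log2 fold change -4.94, SE 0.72, adjusted p = 0.00714) and the B-box factor STO (comp7881_c0) at 1.4 and 3.68 CPM in root and 178 and 121 in leaf (log2 fold change -5.88, SE 0.63, adjusted p = 0.0028). COP1 (comp19665_c0), the ubiquitin ligase that represses light responses in darkness, stood at 0.0405 and 0.325 CPM in root and 26.3 and 38.3 in leaf (log2 fold change -7.41, SE 0.89, adjusted p = 0.00387). All of these passed after the 4 omissions. HY5 (comp5819_c0), a target of that ligase, stood at 0.365 and 3.13 CPM in root and 38.5 and 30.7 in leaf (log2 fold change -4.30, SE 1.02, adjusted p = 0.0385) and passed in 1 of the 4. Phytochrome A, PHYA1 (comp13270_c0), the far-red receptor that accumulates in dark-grown tissue, was higher in root, at 111 and 50.5 CPM in root and 8.98 and 9.02 in leaf (log2 fold change 3.16, SE 0.69, adjusted p = 0.0303), and passed in the same number.

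The cuticle list separated leaf from root, with 12 of 27 tested genes lower and 1 higher and a median log2 fold change of -2.75; 6, 9, 8 and 7 were lower after the omissions. CUT1 (comp12348_c0), a condensing enzyme that elongates wax fatty acids, stood at 0.0811 and 0.325 CPM in root and 493 and 363 in leaf (log2 fold change -11.00, SE 1.04, adjusted p = 0.00216). The fatty acyl reductase FAR3 (comp23005_c0), which makes wax alcohols, stood at 0.304 and 0.0684 CPM in root and 59.4 and 73.2 in leaf (log2 fold change -8.48, SE 1.05, adjusted p = 0.00425), and the wax ester synthase WSD1 (comp22055_c0) at 0.811 and 6.04 CPM in root and 155 and 191 in leaf (log2 fold change -5.65, SE 0.96, adjusted p = 0.0123). Root libraries were near 0 for the first 2 of these and spread between 0.811 and 6.04 CPM for the third. Wax exporters of the ABCG11 type also passed as lower at 3 IDs, the first (comp17664_c0) at 0 and 0.0342 CPM in root and 48.9 and 45.5 in leaf (a ratio of 2544 with a counting interval of 704 to 21005, adjusted p = 0.00879). CUT1 and FAR3 passed after all 4 omissions.

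Suberin is the root's counterpart, a polyester of fatty acids and ferulate laid down in endodermis and periderm. Its list is small, with 2 of 9 tested genes higher, 1 lower and 6 not passing. The 2 higher genes both carry the symbol HHT1, an acyltransferase that adds ferulate to the polyester. They stood at 10.8 and 30.2 CPM in root and 0 and 0 in leaf for comp11121_c0 (at least 623-fold higher, adjusted p = 0.0367) and 2.53 and 19 CPM in root and 0 and 0 in leaf for comp12314_c0 (at least 328-fold higher, adjusted p = 0.0445). Both leaf libraries were at 0 for both. The fatty acid hydroxylase gene CYP86A1 (comp13388_c1) did not pass, at 1.56 and 9.48 CPM in root and 0 and 0.0435 in leaf (a ratio of 252 with a counting interval of 69.7 to 2079, adjusted p = 0.0547). GPAT5 (comp10809_c0), an acyltransferase of suberin, did not pass either, at 0.0811 and 1.3 CPM in root and 0.0221 and 0 in leaf (a ratio of 63 with a counting interval of 11.3 to 2488, adjusted p = 0.102). A hydroxylase named CYP86B1 (comp22491_c0) was lower, at 3.55 and 1.03 CPM in root and 44.6 and 23 in leaf (log2 fold change -3.89, SE 0.95, adjusted p = 0.0431). Another CYP86B1 (comp2559_c0) did not pass, at 0.527 and 3.2 CPM in root and 0 and 0 in leaf (at least 56.6-fold higher, adjusted p = 0.0769). The list's median log2 fold change was 5.94. After the omissions 1, 0, 0 and 0 genes of the list were higher.

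Fatty acid synthesis with a GO term had 14 of 75 genes lower and 1 higher, and 11, 10, 9 and 10 were lower after the omissions. The plastid desaturase FAD7 (comp11227_c0), which makes the trienoic acids of thylakoid lipids, stood at 8.29 and 5.92 CPM in root and 369 and 599 in leaf (log2 fold change -6.09, SE 0.57, adjusted p = 0.00216). The higher gene was fabG (comp20936_c0), a ketoacyl reductase of fatty acid elongation, at 976 and 688 CPM in root and 3.49 and 2.61 in leaf (log2 fold change 8.09, SE 0.62, adjusted p = 0.00175). Both passed after all 4 omissions. Lipoxygenases, which oxygenate such acids on the way to jasmonates and aldehydes, were split by symbol. In KEGG's linoleic acid pathway 9 of 21 genes were lower, 6 of them named LOX2.1, and 2 higher. A LOX2.1 (comp13140_c0) stood at 0.669 and 1.37 CPM in root and 49.8 and 72.3 in leaf (log2 fold change -5.90, SE 0.60, adjusted p = 0.00244), whereas LOX1.5 (comp20517_c0) stood at 82.9 and 78.6 CPM in root and 8.78 and 8.15 in leaf (log2 fold change 3.25, SE 0.47, adjusted p = 0.00699). Of 9 genes described as jasmonate O-methyltransferase, 2 were higher and 1 lower. The lower one, the carboxyl methyltransferase JMT (comp13010_c0), which makes methyl jasmonate, stood at 0.0811 and 0 CPM in root and 104 and 103 in leaf (log2 fold change -11.30, SE 1.20, adjusted p = 0.0028). A higher one, IAMT1 (comp17668_c0), named after a methyltransferase of indole-acetic acid, stood at 25 and 41.7 CPM in root and 0.0885 and 0 in leaf (log2 fold change 9.48, SE 1.39, adjusted p = 0.00731).

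**Figure D4:**
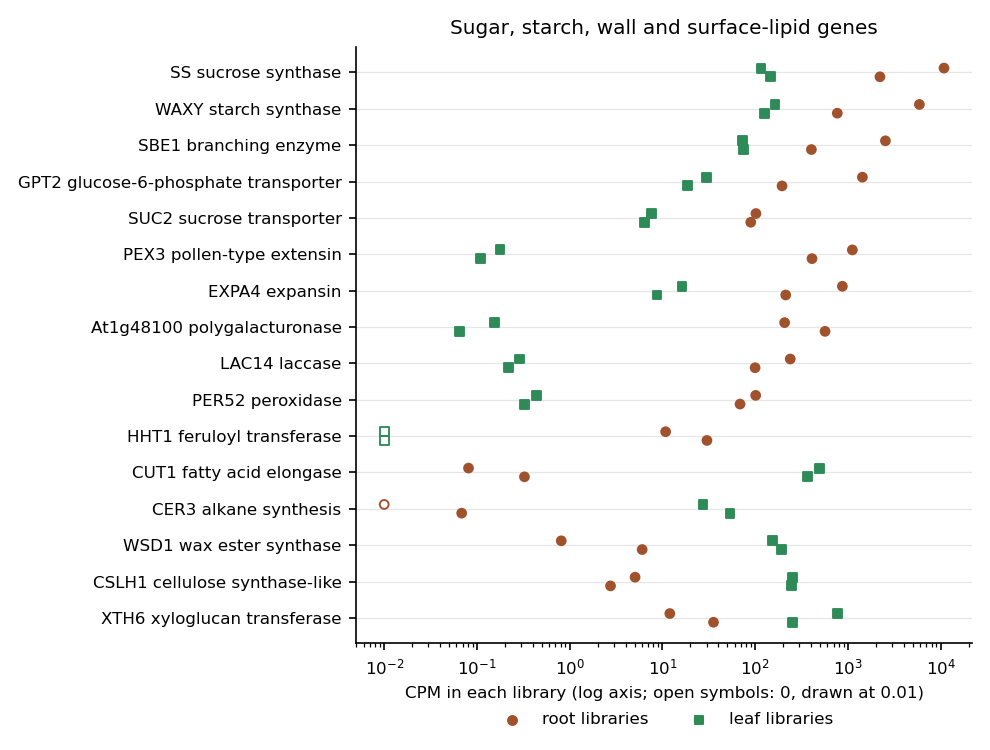
CPM in each root (brown circles) and leaf (green squares) library on a log axis, replicate 1 drawn above replicate 2, with libraries at 0 as open symbols drawn at 0.01. Root lies above leaf from SS to HHT1 and below it from CUT1 to XTH6, and root replicate 1 lies well above replicate 2 for SS, WAXY, SBE1 and GPT2.

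Genes of starch and sucrose metabolism were found on both sides, with 32 of 240 higher (13.3%), 23 lower (9.58%) and a median log2 fold change of 0.12. All genes with a KEGG pathway passed as higher in 6.42% and as lower in 10.9% of cases. Sucrose synthase SS (comp22513_c0), which splits imported sucrose into fructose and UDP-glucose, stood at 10849 and 2212 CPM in root and 116 and 145 in leaf (log2 fold change 5.65, SE 0.92, adjusted p = 0.0106). The granule-bound starch synthase WAXY (comp22920_c0), which makes amylose, stood at 5886 and 767 CPM in root and 163 and 126 in leaf (log2 fold change 4.52, SE 1.03, adjusted p = 0.0338). The branching enzyme SBE1 (comp7839_c0), which makes amylopectin, stood at 2534 and 403 CPM in root and 72.3 and 74.7 in leaf (log2 fold change 4.32, SE 0.90, adjusted p = 0.0259). For all of these, root replicate 1 was several times above replicate 2, and both were above the leaf libraries. The small subunit of ADP-glucose pyrophosphorylase, which makes the precursor of starch, went both ways, with AGPS1 comp17044_c0 at 1190.5 and 369.7 CPM in root and 2.54 and 3.2 in leaf (log2 fold change 8.08, SE 0.77, adjusted p = 0.00216) and AGPS1 comp21024_c0 at 28.2 and 40.9 CPM in root and 324 and 454 in leaf (log2 fold change -3.49, SE 0.65, adjusted p = 0.017). On the leaf side lay the plastid beta-amylase BAM3 (comp23296_c0), which degrades leaf starch at night. It stood at 7.95 and 21.9 CPM in root and 509.6 and 872 in leaf (log2 fold change -5.53, SE 0.86, adjusted p = 0.00879). The omissions left 17, 23, 8 and 9 higher and 16, 11, 10 and 11 lower. Of these starch and sucrose genes, AGPS1 comp17044_c0 and BAM3 passed after all 4. The glucose-6-phosphate translocator GPT2 (comp21417_c0), which feeds non-green plastids, stood at 1431 and 195 CPM in root and 29.8 and 18.7 in leaf (log2 fold change 5.07, SE 1.16, adjusted p = 0.0349) and the phloem-type sucrose transporter SUC2 (comp11241_c0) at 102 and 89.5 CPM in root and 7.65 and 6.35 in leaf (log2 fold change 3.77, SE 0.44, adjusted p = 0.00371). SWEET7 (comp16372_c0), a sugar facilitator, stood at 27 and 7.68 CPM in root and 0.133 and 0 in leaf (log2 fold change 7.98, SE 1.21, adjusted p = 0.00809) and passed after all 4 omissions, while SWEET1 (comp12083_c0) was lower, at 6.16 and 6.52 CPM in root and 76.4 and 23.7 in leaf (log2 fold change -2.98, SE 0.66, adjusted p = 0.0313).

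Glycolysis had members on both sides, 26 of 129 higher and 20 lower, and 11 of the 20 lower and 3 of the 26 higher genes carried a plastid GO term. Of the 132 glycolysis members, tested or not, 40 were also in the photosynthesis or terpenoid lists, as were 26 of 67 pentose phosphate members. The aldolase gene FBA1 (comp15888_c0), named after the plastid enzyme of the Calvin cycle, stood at 0.547 and 6.79 CPM in root and 10778 and 7392 in leaf (log2 fold change -11.27, SE 1.71, adjusted p = 0.00823). An aldolase named FBA (comp21133_c0) was higher in root, at 627 and 251 CPM in root and 118 and 103 in leaf (log2 fold change 1.99, SE 0.50, adjusted p = 0.0482). Pentose phosphate genes gave 12 of 65 higher and 20 lower, or 15 each with library totals without the 20 highest genes, with a transaldolase, tal (comp18976_c0), at 665 and 321 CPM in root and 38.1 and 38.9 in leaf (log2 fold change 3.68, SE 0.53, adjusted p = 0.00711) and a ribulose-phosphate epimerase, RPE (comp21552_c0), at 35.7 and 27.9 CPM in root and 1159.5 and 1173 in leaf (log2 fold change -5.20, SE 0.52, adjusted p = 0.00236). Raffinose family synthesis was split as well. RFS1 (comp20135_c0) stood at 122 and 76.1 CPM in root and 1.04 and 1.09 in leaf (log2 fold change 6.54, SE 1.11, adjusted p = 0.0122) and RFS2 (comp13796_c0) at 0.264 and 0 CPM in root and 86 and 162 in leaf (log2 fold change -9.90, SE 1.49, adjusted p = 0.00797). The omissions left 13, 20, 5 and 5 glycolysis genes higher and 13, 14, 12 and 10 lower. FBA1, RPE and RFS2 passed after all 4 of them, and FBA, tal and RFS1 did not.

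Such splits were counted over the whole table. Of 1154 products carried by at least 2 tested genes, 73 had both a gene higher and a gene lower in root, 111 had only higher and 275 only lower genes among those that passed. The 73 included glutathione transferases, aldolases, lipoxygenases, cysteine synthases, transketolases and pectinesterases. Among glutathione transferases 7 of 28 genes were higher and 4 lower, with GSTF9 (comp7688_c0) at 83.6 and 159.8 CPM in root and 15 and 10.7 in leaf (log2 fold change 3.25, SE 0.56, adjusted p = 0.0129) and another GSTF9 (comp6657_c0) at 0.122 and 0.274 CPM in root and 142 and 142 in leaf (log2 fold change -9.45, SE 0.85, adjusted p = 0.00196). Near-identical IDs may have shared reads in the authors' counting, and single members of such families are uncertain to that extent.

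**Figure D5:**
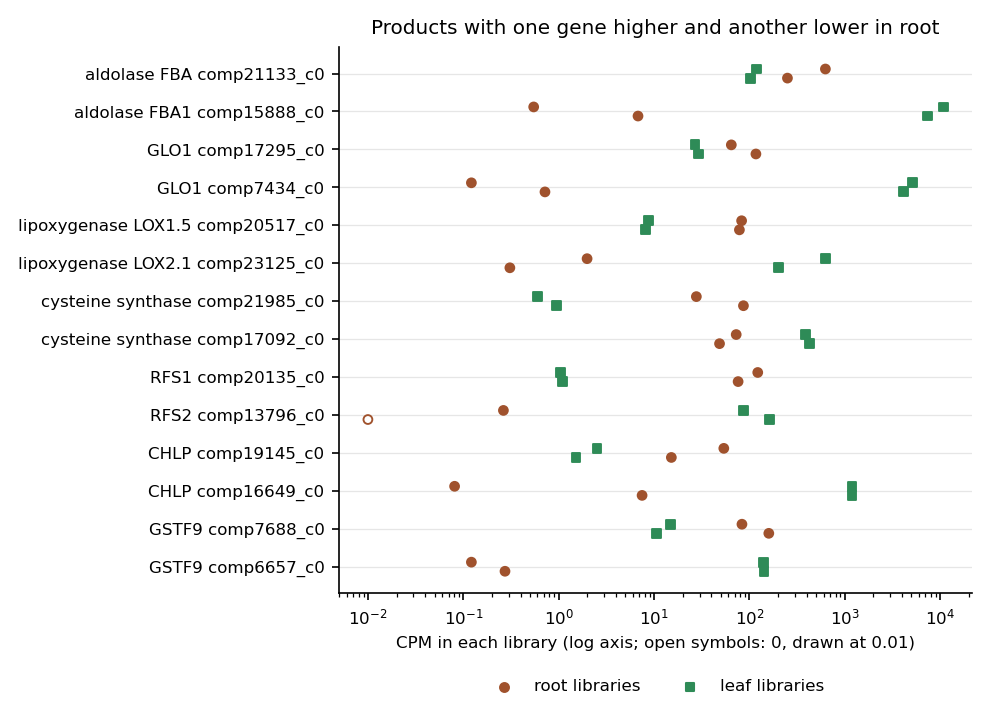
CPM in each root (brown circles) and leaf (green squares) library on a log axis for 7 products with one gene higher and another lower in root, the higher one drawn first, replicate 1 above replicate 2; open symbols mark 0. In each pair the order of the tissues turns over between the genes, by less for GLO1 comp17295_c0 and FBA comp21133_c0 than for their partners.

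Of 20 tested laccases, multicopper oxidases that couple monolignols, 10 were higher and 0 lower, and the list's median log2 fold change was 7.88. LAC14 (comp23139_c0) stood at 239 and 99.7 CPM in root and 0.288 and 0.217 in leaf (log2 fold change 9.37, SE 0.84, adjusted p = 0.00196). Another ID of that symbol (comp17050_c0) stood at 157 and 81.5 CPM in root and 0 and 0 in leaf (at least 3618-fold higher, adjusted p = 0.0117). LAC14 comp23139_c0 passed after all 4 omissions, which left 5, 8, 2 and 4 laccases higher. Peroxidases, which oxidise the same alcohols with hydrogen peroxide, had 11 of 50 genes higher and 3 lower, and 5, 4, 3 and 3 were higher after the omissions. PER52 (comp22959_c0) stood at 101 and 68.6 CPM in root and 0.442 and 0.326 in leaf (log2 fold change 7.78, SE 1.03, adjusted p = 0.00506). The 3 lower genes carry plastid GO terms and include the antioxidant peroxiredoxin PRXQ (comp21645_c0) at 5.19 and 2.26 CPM in root and 335 and 747 in leaf (log2 fold change -7.18, SE 0.73, adjusted p = 0.00246). For the lignin list as a whole 12 of 51 genes were higher and 1 lower, and for phenylpropanoid biosynthesis 28 of 160 and 11. The omissions left 6, 9, 2 and 4 lignin genes and 14, 13, 5 and 7 phenylpropanoid genes higher. The cinnamoyl-CoA reductase CCR1 (comp12158_c0), the first committed step to monolignols, stood at 189.6 and 101 CPM in root and 46.8 and 47 in leaf (log2 fold change 1.63, SE 0.40, adjusted p = 0.0423), and a chalcone synthase (comp16436_c0), the entry to flavonoids, at 2532 and 84.7 CPM in root and 1.28 and 6.83 in leaf (log2 fold change 8.33, SE 1.90, adjusted p = 0.0343), with root replicate 1 far above replicate 2.

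Aromatic decarboxylases went the other way. In KEGG's histidine pathway 10 of 27 genes were lower and 0 higher. Of these 10, 4 were aromatic amino acid decarboxylases and 3 aldehyde dehydrogenases. TYDC1 (comp19564_c0), named after tyrosine decarboxylase, which makes tyramine, stood at 0.486 and 0.171 CPM in root and 134 and 135 in leaf (log2 fold change -8.68, SE 0.88, adjusted p = 0.00244). TYRDC-2 (comp21814_c0) stood at 0.101 and 0.12 CPM in root and 61.5 and 76.3 in leaf (log2 fold change -9.24, SE 1.42, adjusted p = 0.00856), and TDC (comp20693_c0) at 0 and 0 CPM in root and 125 and 28 in leaf (at least 2746-fold lower, adjusted p = 0.00686). These 3 were near or at 0 in both root libraries. The fourth, ELI5 (comp21063_c0), stood at 3.45 and 4.07 CPM in root and 29.6 and 52.3 in leaf (log2 fold change -3.45, SE 0.64, adjusted p = 0.0169) and passed in 1 of the 4 omissions. All were picked after their values were seen.

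Of 273 cell wall genes 18 were higher (6.59%) and 19 lower (6.96%), beside 5.87% and 10% of all genes with a GO term. With library totals without the 20 highest genes, 28 were higher and 17 lower. PEX3 (comp13765_c0), an extensin-like leucine-rich repeat protein by its wall annotation, stood at 1115 and 409 CPM in root and 0.177 and 0.109 in leaf (log2 fold change 12.35, SE 1.74, adjusted p = 0.0064). The expansin EXPA4 (comp7608_c0), which loosens walls, stood at 870.3 and 213 CPM in root and 16.3 and 8.72 in leaf (log2 fold change 5.44, SE 1.0, adjusted p = 0.0166). The polygalacturonase At1g48100 (comp5132_c0), which cuts pectin, stood at 207 and 566 CPM in root and 0.155 and 0.0652 in leaf (log2 fold change 11.75, SE 0.92, adjusted p = 0.00177). There was no overlap of the tissues, and leaf was under 1 CPM for PEX3 and At1g48100. On the leaf side a pectinesterase (comp21469_c0), which demethylates pectin, stood at 6.53 and 0.873 CPM in root and 495 and 189.5 in leaf (log2 fold change -6.53, SE 1.36, adjusted p = 0.0253), the cellulose synthase-like CSLH1 (comp23237_c0) at 5.07 and 2.76 CPM in root and 253 and 246 in leaf (log2 fold change -6.0, SE 0.84, adjusted p = 0.00618) and the xyloglucan transferase XTH6 (comp22888_c1) at 12 and 35.5 CPM in root and 770.3 and 249.9 in leaf (log2 fold change -4.42, SE 1.05, adjusted p = 0.0391). At1g48100 and CSLH1 passed after all 4 omissions, which left 9, 11, 2 and 2 wall genes higher and 10, 9, 5 and 5 lower. RSI-1 (comp17686_c0), of the gibberellin-regulated GASA family of secreted proteins, stood at 308 and 252 CPM in root and 0.0221 and 0 in leaf (a ratio of 25537 with a counting interval of 4583 to 1008670.0, adjusted p = 0.00175). GASA4 (comp16654_c0), of the same family, stood at 1994 and 453 CPM in root and 30.5 and 15.2 in leaf (log2 fold change 5.74, SE 0.92, adjusted p = 0.00986).

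Uptake lists differed among themselves. Of 46 genes for mineral ion transport 1 was higher and 5 (10.9%) lower, close to the 10% lower of all genes with a GO term. Of 74 ABC transporters 4 were higher and 17 lower, and of 28 peptide-type transporters, the family that holds nitrate carriers, 1 and 4. The medians of these lists were -0.24, -0.17 and 0.51, and 0.17, 0.28 and 0.89 with library totals without the 20 highest genes. Among water channels 5 of 26 were higher and 1 lower, though 3, 3, 0 and 0 were higher after the omissions. TIP1-3 (comp20608_c0), a channel of the vacuole membrane, stood at 309 and 173 CPM in root and 21.7 and 19.5 in leaf (log2 fold change 3.55, SE 0.71, adjusted p = 0.022). NIP5-1 (comp20325_c0), which carries boric acid in Arabidopsis roots, stood at 94.7 and 460.3 CPM in root and 17.2 and 12.4 in leaf (log2 fold change 4.23, SE 1.06, adjusted p = 0.0459), with root replicate 2 well above replicate 1. Among potassium carriers 3 of 29 were higher and 2 lower, POT5 (comp8086_c0) standing at 32.8 and 155 CPM in root and 0.133 and 0.0435 in leaf (log2 fold change 10.02, SE 1.54, adjusted p = 0.0086). The ferric reductase FRO2 (comp23083_c0), which in Arabidopsis frees iron at the root surface, stood at 2414 and 531 CPM in root and 30.7 and 41.2 in leaf (log2 fold change 5.36, SE 0.83, adjusted p = 0.00886). The copper transporter COPT1 (comp16739_c0) was lower, at 0.0811 and 1.97 CPM in root and 262 and 82.7 in leaf (log2 fold change -7.38, SE 1.45, adjusted p = 0.0208). Of the transporters of the ABC list, ABCC3 (comp22177_c0) was higher, at 159 and 120.2 CPM in root and 7.36 and 4.57 in leaf (log2 fold change 4.55, SE 0.54, adjusted p = 0.00374), and ABCB2 (comp22248_c0) lower, at 0.243 and 0 CPM in root and 401 and 273 in leaf (log2 fold change -11.46, SE 1.42, adjusted p = 0.00424); both passed after all 4 omissions, and the others named in this paragraph did not. GO terms for root development had 6 of 182 genes higher (3.3%) and 15 lower (8.24%), or 13 and 15 with library totals without the 20 highest genes.

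Alcohol dehydrogenases carried several pathways that bear other names. KEGG's retinol metabolism had 13 of 33 genes higher and 1 lower, and of the 13, 9 were alcohol dehydrogenases and 4 cytochrome P450s. The same 9 were among the 12 of 58 genes higher in fatty acid metabolism. In the drug metabolism pathway, 20 of 59 were higher, made up of these 9, 7 glutathione transferases and 4 P450s, and in methane metabolism 15 of 60 were higher, of which 10 were peroxidases. At5g42250 (comp15994_c0), an alcohol dehydrogenase chosen after its values were seen, stood at 117 and 47.6 CPM in root and 0.995 and 0.652 in leaf (log2 fold change 6.64, SE 0.74, adjusted p = 0.00311). The heat shock 70 genes did the same for other lists. Of 8 spliceosome genes higher in root 7 were heat shock 70 genes, and of 9 in endocytosis the same number, with 1 and 0 genes lower. The omissions left 3, 8, 0 and 0 and 4, 8, 0 and 0 higher. HSP70 (comp16710_c0) stood at 2598 and 392 CPM in root and 2.26 and 1.83 in leaf (log2 fold change 9.51, SE 1.42, adjusted p = 0.0078).

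Defence lists were mixed. Of 176 genes with GO terms for response to fungus or chitin 19 were higher (10.8%) and 6 lower (3.41%). Of 59 kinases described as like interleukin-1 receptor-associated kinase 4, the receptor-like kinases of plants, 8 were higher (13.6%) and 0 lower. All genes with a GO term passed as higher in 5.87% and as lower in 10% of cases, and all tested genes in 4.45% and 7.92%. WRKY11 (comp25740_c0), a transcription factor of defence, stood at 67.7 and 90.9 CPM in root and 4.29 and 2.87 in leaf (log2 fold change 4.47, SE 0.59, adjusted p = 0.00506). The receptor kinase FER (comp22859_c0), which senses wall state and peptides, stood at 30.8 and 14 CPM in root and 1.35 and 1.41 in leaf (log2 fold change 4.02, SE 0.74, adjusted p = 0.0165). The calmodulin-like CML11 (comp17612_c0) stood at 12.3 and 17.7 CPM in root and 0.907 and 0.935 in leaf (log2 fold change 4.02, SE 0.49, adjusted p = 0.00418), and the beta-glucanase GLC1 (comp19511_c0), of a family that cuts callose and fungal walls, at 78.2 and 42.6 CPM in root and 0.133 and 0.348 in leaf (log2 fold change 7.96, SE 0.93, adjusted p = 0.00528). CML11 and GLC1 passed after all 4 omissions. After the omissions 8, 7, 1 and 0 genes of the fungus and chitin list were higher and 2, 3, 2 and 1 lower, and 3, 3, 1 and 1 of the kinases were higher. Annotation to bacteria had 11 of 150 higher (7.33%) and 17 lower (11.3%), near the shares of all genes with a GO term. With library totals without the 20 highest genes, 18 were higher and 15 lower. The plant-pathogen pathway had 3 of 58 genes higher (5.17%) and 2 lower (3.45%), beside 6.42% and 10.9% of all genes with a KEGG pathway.

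Hormone lists are set beside the 5.87% higher and 10% lower of all genes with a GO term. For auxin 25 of 253 genes were higher (9.88%) and 18 lower (7.11%), and for abscisic acid 17 of 266 (6.39%) and 20 (7.52%). Ethylene had 13 of 186 higher (6.99%) and 6 lower (3.23%), and jasmonate 9 of 105 (8.57%) and 5 (4.76%). Salicylate had 7 of 75 higher (9.33%) and 1 lower (1.33%), and cytokinin 4 of 82 (4.88%) and 7 (8.54%). Brassinosteroid had 5 of 67 higher (7.46%) and 3 lower (4.48%), and gibberellin 5 of 61 (8.2%) and 3 (4.92%). Abscisic acid and cytokinin lay near the shares of all genes with a GO term. With library totals without the 20 highest genes, abscisic acid turned to 33 higher and 15 lower. RAP2-3 (comp20336_c0), an ethylene response factor of the group tied to low oxygen in Arabidopsis, stood at 157 and 97.4 CPM in root and 3.87 and 0.935 in leaf (log2 fold change 5.72, SE 0.83, adjusted p = 0.00711). MYB12 (comp21199_c0), named after a regulator of flavonol synthesis, stood at 158 and 40.3 CPM in root and 0.155 and 0.0435 in leaf (log2 fold change 9.93, SE 1.13, adjusted p = 0.00332). On the leaf side, the auxin repressor IAA14 (comp11401_c0) stood at 5.01 and 1.44 CPM in root and 239 and 175 in leaf (log2 fold change -6.01, SE 0.81, adjusted p = 0.00534). The germin-like auxin-binding protein ABP19A (comp21088_c0) stood at 0.912 and 0.89 CPM in root and 1177 and 1143 in leaf (log2 fold change -10.33, SE 1.57, adjusted p = 0.00831), and GATA22 (comp20992_c0), a cytokinin-responsive factor that promotes chloroplast development in Arabidopsis, at 0 and 0 CPM in root and 32.6 and 42.4 in leaf (at least 1347-fold lower, adjusted p = 0.00447). The 2 tissues did not overlap for any gene named here, and RAP2-3, MYB12, IAA14 and GATA22 passed after all 4 omissions. These left 12, 15, 6 and 4 auxin genes higher and 10, 11, 7 and 8 lower.

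Growth machinery had few calls apart from histones. Of 86 histone genes 10 were higher and 0 lower, with a list median of 1.46, and the histone H3 gene HTR2 (comp21711_c0) stood at 270.4 and 124 CPM in root and 5.15 and 4.96 in leaf (log2 fold change 5.28, SE 0.87, adjusted p = 0.0109). After the omissions 5, 6, 1 and 1 were higher. For DNA replication 2 of 69 genes were higher, mcm2 (comp19831_c0), a subunit of the replicative helicase, at 53.6 and 20.8 CPM in root and 1.44 and 1.87 in leaf (log2 fold change 4.49, SE 0.76, adjusted p = 0.0121), and PCNA (comp18715_c0), the sliding clamp, at 46.8 and 26.9 CPM in root and 2.99 and 2.76 in leaf (log2 fold change 3.68, SE 0.92, adjusted p = 0.0461). One gene, polA (comp20842_c0), was lower, at 14 and 8.69 CPM in root and 38.2 and 40.1 in leaf (log2 fold change -1.79, SE 0.43, adjusted p = 0.0406). Proteasome genes passed in 1 of 74 cases, as lower (2 higher and 0 lower with library totals without the 20 highest genes), and ubiquitin-mediated proteolysis had 12 of 173 genes higher and 4 lower.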

How the data were processed

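RNA-seq values for 30177 assembled genes in 8 libraries were taken from the authors' deposited expression table, which per the file headers gives for each library an estimated count, a TPM value and an RPKM value. The estimated counts in the authors' table were not whole for every gene and were rounded. TPM, the authors' value scaled by gene length and library size, entered an alternative only, and the deposited RPKM values were not used. The sources used here name no aligner, assembler or counting method.

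Genes were filtered by edgeR 4.0.16 (filterByExpr by tissue), which removed 2238. Counts were scaled by TMM and fitted by edgeR's quasi-likelihood test, with a mean for each tissue and no other covariate over the 8 libraries, and root was contrasted with leaf. The residual degrees of freedom were 4. SE is the absolute log2 fold change divided by the square root of F. P-values were adjusted by Benjamini-Hochberg over all 27939 genes. Where a tissue had 0 counts, the fold is a lower bound from 3 counts over its 2 libraries. Where it had 1 to 3, the ratio has a 95% interval for counting error only. R 4.3.3, limma 3.58.1, DESeq2 1.42.0, Python 3.11.15 and pandas 2.3.3 were used, and the procedure was tested on simulated data.

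Of 77 lists, 18 were added once the annotation columns had been read, because the KOG column holds class names only and 11 lists had no member. Members and lists were chosen with earlier results of these data known. Lists were described by counts and medians, with no test of the list.

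Named genes were, per list and direction, up to 3 with the highest mean CPM in the tissue where they were higher. Over annotated genes outside the photosynthesis and terpenoid lists, the 10 of each direction by mean CPM and the 10 by gap between the tissues were added. These additions were taken only from genes whose tissues did not overlap, so for them lack of overlap was fixed by the rule. GDCST, HEMA1, thrS, CLPP6, FTSZ2-1, ABCG11, CYP86A1, GPAT5, LOX2.1, GSTF9 comp6657_c0, At5g42250, TYDC1, TYRDC-2, TDC, ELI5, AGPS1 comp17044_c0, IAMT1 and CYP86B1 comp2559_c0 were named outside this rule after their values were seen. Alternatives were other scalings, filters, tests and libraries.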

Additional observations from a re-analysis of the deposited data

How the results depend on the processing

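The 3455 genes that passed became 1998 and 2167 without root replicate 1 and 2 and 1343 and 1225 without leaf replicate 1 and 2, and ranged from 1225 to 2743 over all omissions, flower replicate 2 and fruit replicate 2 included. Higher genes ranged from 184 to 850 (664 and 675 without root replicate 1 and 2, 196 and 184 without leaf replicate 1 and 2), and lower genes from 1041 to 1907. DESeq2 passed 6045 genes, 2659 higher and 3386 lower. Higher genes numbered 1959 with library totals without the 20 highest genes, 2255 in limma on log2(TPM + 1) and 2048 on log2(TPM + 0.1). Median-ratio scaling, no filter, and root and leaf libraries alone kept these 3 totals within 1.5 times, while 3, 10 and 40 of the 132 list counts moved further. A minimum fold removed no gene, since all 3455 that passed the adjusted p also changed by at least 1 on the log2 scale.

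Replicate numbers recur in the tissues. With the replicate block 3300 genes passed, 1158 higher and 2142 lower. The deviations of same-numbered root and leaf libraries correlated at 0.436, over 2 pairs, and no label ties a number to a plant or a day.

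None of the 289 genes named by the rule changed direction under any alternative in which it was fitted. Since they were picked from genes that had passed and the alternatives reuse the same libraries, the unchanged direction of these genes is no separate evidence. Without leaf replicate 1 or 2, 170 and 179 of them no longer passed, without root replicate 1 or 2, 103 and 92, and under the replicate block 36; the cause was not tested. With 1 library left in a tissue, it is assumed to vary like the others. At 2 libraries per tissue and a biological coefficient of variation of 0.667, a gene that did not pass cannot be called unchanged.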
